A study of Selaginella moellendorffii with 8 samples.

Results

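The 200 gene models described here were read in leaf, root and shoot of Selaginella moellendorffii, at levels within 8-fold of each other, and at a lower level in the rhizophore. They were chosen from the 25004 models of the deposited count table by their levels in read counts scaled to library size (CPM) with edgeR's TMM factors. Each of the 6 leaf, root and shoot libraries had to reach 5 CPM, their highest value had to lie under 8 times their lowest, and that lowest value had to be at least 3 times the higher of the 2 rhizophore libraries. The level limit was met by 9619 models, the level and evenness limits by 8963, and all limits by 552. These were ranked by the lowest of the 6 values plus 1 over the higher rhizophore value plus 1, and the first 200 were kept. The contrast between rhizophore and the other organs therefore chose the models, and it is given below as a description, with no test.

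Selaginella is a lycophyte, a vascular plant of a lineage that split early from the ferns and seed plants. At each fork of its stem lie angle meristems, and from these grow rhizophores, leafless and capless axes that extend down to the soil and form roots at their tips. Its leaves are microphylls, small leaves with a single vein. A model that is read in every other organ and hardly at all in the rhizophore is thus one whose transcript is scarce in an organ that comes from the stem and later bears roots.

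RNA was sequenced from 4 organs with 2 libraries each, in a study that compared the growth centres of the plant. Rhizophores were outgrowths of the ventral angle meristem, 4 to 7 days old and 2.5 to 3.5 cm long, without cap, hairs, green colour or leaves. Leaves were 10 to 14 days old, and roots, later outgrowths of the same meristem with a cap and hairs, measured 5 to 10 cm at 10 to 20 days. Shoots were green tips of young branches 10 to 20 days old that already carried microphylls. All plants were untreated and grown from stem cuttings at 80% humidity with 16 h of light and 8 h of dark, and each library came from 40 pooled tissue pieces. The rhizophores were the youngest outgrowths, so organ and age cannot be told apart. The 2 libraries of each organ are labelled as biological repeats, but the labels name no separate plants, and p-values therefore cover only the spread among the libraries sequenced.

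Total counts were 10063538 and 11886486 for rhizophore, 2826533 and 16058139 for leaf, 25937179 and 27891111 for root, and 15161907 and 15305641 for shoot. The smallest count above 0 in any library was 5, so that up to 4 reads may lie behind a value of 0. In CPM, 5 counts were worth 0.402 and 0.324 in the rhizophore libraries, and between 0.103 and 2.15 in the others. None of the model names matched the reference table of named genes, so the models carry no gene name or role here, and the organs could not be checked against marker genes.

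The deposited tables differed in how they treat the library labelled rhizophore replicate 2. Fitted as a weighted sum of the count columns, the Root average of the authors' deposited table drew 49.7% from rhizophore replicate 2, 25.2% from root replicate 1 and 25.2% from root replicate 2. The Rhizophore average in the authors' deposited table took 99.9% from rhizophore replicate 1. In the count table that column carries the rhizophore label, and this label is kept here. The rhizophore libraries also had the highest chi-square per degree of freedom, 238, against 4.45 for leaf, 119 for root and 13 for shoot. A chi-square of counts grows with depth, which differed between the organs, and leaf replicate 1 was the shallowest library. With rhizophore replicate 2 left out, 199 of the 200 models still met the limits, as did 199 without rhizophore replicate 1. The rule takes the higher rhizophore library, so leaving 1 out can only ease that limit, apart from the recomputed TMM factors. These 2 counts were thus nearly fixed in advance and say nothing on the label of replicate 2. With rhizophore replicate 2 counted as a root library, 0 of the 200 met them, since the rule asks for a low level in that library.

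The 200 models had a median level of 1.33 and 0.648 CPM in the rhizophore libraries. Their medians were 43.1 and 49.4 CPM in leaf, 34.5 and 33.8 CPM in root, and 47.7 and 48.3 CPM in shoot. The highest value was 53.4 and 91.9 CPM in rhizophore, 3020 and 3410 CPM in leaf, 2230 and 3070 CPM in root, and 3210 and 3230 CPM in shoot. In bulk tissue, fewer cells of a type and less RNA per cell cannot be told apart. As a share of all counts, the 200 models took 0.0889% (95% Wilson interval 0.0871 to 0.0908) and 0.0672% (0.0658 to 0.0687) in the rhizophore libraries. They took 2.93% and 2.72% in leaf, 2.94% and 3.15% in root, and 2.65% and 2.63% in shoot. The rhizophore shares thus lay below those of all 6 other libraries, which the rule fixed.

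**Figure D1:**
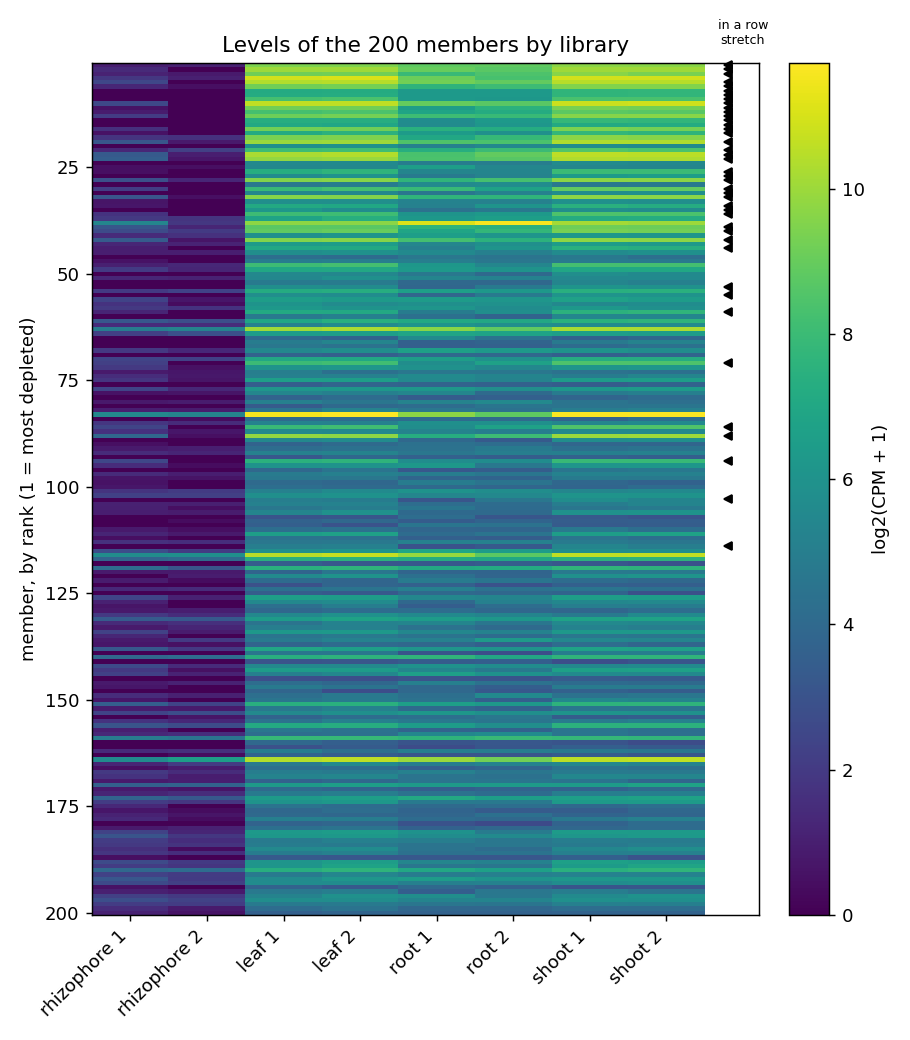
Levels of the 200 models (rows, by rank) in the 8 libraries (columns), as log2(CPM + 1), with an arrowhead beside each model that lies in either of the 2 row stretches described below. The 2 rhizophore columns are mostly dark, with medians of 1.33 and 0.648 CPM and highest values of 53.4 and 91.9 CPM. The arrowheads crowd at the top, where 20 of the first 25 ranks carry one.

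The mean of the 3 organ means over that of the rhizophore, with a library at 0 set to 5 counts, ran from 7.79-fold to 1100-fold over the 200 models, with a median of 31.5-fold. It was at least 10-fold for 194 models, at least 50-fold for 71 and at least 100-fold for 46. Both rhizophore libraries were above 0 for 122 models, 1 of them was at 0 for 37, and both were at 0 for 41. No model was at 0 in any of the 6 other libraries. Where 1 or both rhizophore libraries were at 0 the fold is a lower bound, so the range and median over all 200 mix bounds with measured folds. The 122 measured folds ran from 7.79 to 783 with a median of 25.1, and the bounds of the 41 models at 0 in both libraries from 20.5 to 663 with a median of 56.5. These 41 were not the most abundant models: their organ means had medians of 23.6 CPM in leaf, 14.8 CPM in root and 25.6 CPM in shoot.

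Rhizophore replicate 1 was above rhizophore replicate 2 for 121 of the 200 models and below it for 38, with 41 equal at 0. Over all 23662 models that passed edgeR's filter on low counts, replicate 1 was the higher in 42.6%, and over the 8963 that met the level and evenness limits in 47.5%. Replicate 2 was at 0 for 73 of the 200 models and replicate 1 for 46. The excess of replicate 1 was not tested.

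The limits cut through a continuous range of values. The last model kept, Smoe_00039810, had 1.21 and 0.518 CPM in rhizophore, 11.19 and 12.88 CPM in leaf, 11.95 and 11.99 CPM in root, and 12.45 and 12.36 CPM in shoot, for a ranking ratio of 5.531. The first model not kept, 446658.v1, had a ratio of 5.518, with a rhizophore value of up to 22.3 CPM and at least 127 CPM elsewhere. The widest range among the other organs in a kept model was 7.61-fold, for 446268.v1, and the narrowest range past the limit was 8.02-fold, for 41533.v1. The kept model nearest to the level limit, 90899.v1, had 5.16 CPM in its lowest library of the 6, and 127090.v1, which missed it by the least, had 4.98 CPM. The smallest depletion kept was that of 97885.v1, with up to 16.8 CPM in rhizophore and at least 99.7 CPM elsewhere, and Smoe_00034308, with up to 23.4 CPM and at least 70.0 CPM, missed the limit of 3 times by the least. A further 59 models were at the level and depleted in rhizophore but too uneven among leaf, root and shoot, and 49 of these had a ranking ratio above that of the last model kept.

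**Figure D2:**
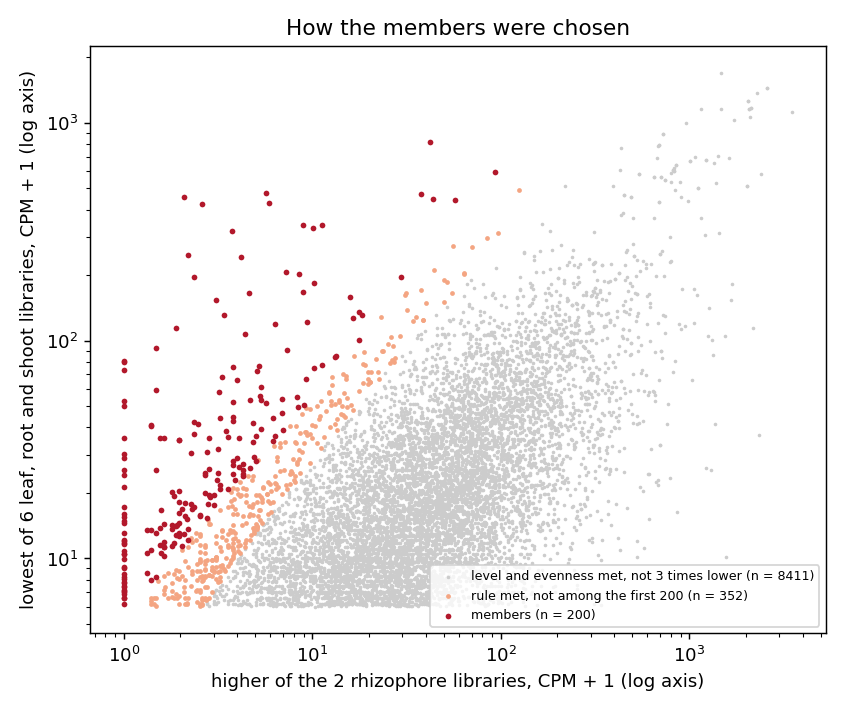
Each point is a model that met the level and evenness limits. The horizontal axis is the higher of the 2 rhizophore libraries and the vertical axis the lowest of the 6 other libraries, both as CPM + 1 on log axes. The 200 members lie at the upper left edge of a continuous cloud, beside 352 models that met the rule at lower ranks.

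The model with the highest rank, 139135.v1, had 0.964 and 1.10 CPM in rhizophore, 688 and 698 CPM in leaf, 458 and 467 CPM in root, and 822 and 799 CPM in shoot. Its means were 1.03 ± 0.10 CPM in rhizophore, 693 ± 7 CPM in leaf, 462 ± 6 CPM in root and 810.4 ± 16.7 CPM in shoot (SD, n = 2 each). The leaf mean was 671-fold, the root mean 448-fold and the shoot mean 785-fold that of the rhizophore. All 4 organs were apart, in the order rhizophore, root, leaf, shoot.

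The second by rank, 137715.v1, had 1.61 and 0 CPM in rhizophore, 1039 and 1057 CPM in leaf, 512 and 421 CPM in root, and 1070.4 and 1059 CPM in shoot. Leaf and shoot lay side by side at about the same level, and both root libraries lay below them. The leaf mean was at least 1086-fold that of the rhizophore, the root mean at least 483-fold and the shoot mean at least 1103-fold, since 1 rhizophore library was at 0.

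The models 137695.v1 and 137752.v1, ranked 7 and 8, were at 0 in both rhizophore libraries. The first had 143 and 149 CPM in leaf, 79.6 and 80.3 CPM in root, and 204 and 210 CPM in shoot, and 137752.v1 had 149.8 and 151 CPM in leaf, 78.5 and 79.9 CPM in root, and 205 and 209.8 CPM in shoot. In each of the 8 libraries their counts differed by at most 0.1 on the log2 scale, so reads may be split between near-identical copies and their separate levels are uncertain. They were the only such pair among the 200 models. Thus 1% of the 200 stood in a pair, against 2.82% of the 13937 models whose mean count reached 100. These shares are not like for like, since at the low rhizophore counts chosen by the rule a few reads exceed 0.1. Other members may still be near-identical copies. Models 236845.v1 and 237022.v1 had 52.65 and 52.6 CPM in root replicate 1 and 357.2 and 356 CPM in shoot replicate 1, but 4.337 and 3.695 CPM in rhizophore replicate 1.

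The highest lower bound on the fold was that of 137886.v1, ranked 11, with 0.482 and 0 CPM in rhizophore. It had 575 and 577 CPM in leaf, 91.9 and 179.7 CPM in root, and 639.5 and 595 CPM in shoot. Its mean over the 3 organs was at least 1100-fold that of the rhizophore. The root libraries differed from each other more than those of leaf or shoot did, and lay below all 4 of them.

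The other models among the first 12 ranks were 139154.v1, 432362.v1, 137766.v1, 137865.v1, 137887.v1, 137837.v1 and 432688.v1. In all of them, both root libraries were below all 4 leaf and shoot libraries. In 432362.v1 the rhizophore had 2.73 and 1.04 CPM, the leaf 1958 and 2146 CPM, the root 554 and 319 CPM, and the shoot 1931 and 1940 CPM. This was the model of highest level among the first 12 ranks.

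A mean of at least 1000 CPM over leaf, root and shoot was reached by 8 models and one of at least 100 CPM by 57, while 9 stayed under 10 CPM. At the top, 446268.v1 had 42.9 and 36.8 CPM in rhizophore, 3023 and 3409 CPM in leaf, 838 and 448 CPM in root, and 3205 and 3233 CPM in shoot. Its rhizophore level was thus close to the median level of the 200 models in the other organs, and its fold was 80.7 for leaf, 16.1 for root and 80.8 for shoot. Model 138833.v1 stood out among the 8 by being highest in root: it had 41.1 and 2.78 CPM in rhizophore, 856 and 817 CPM in leaf, 2233 and 3066 CPM in root, and 1128 and 1042 CPM in shoot. Its 2 rhizophore libraries differed widely, and both lay below every other library. In 183345.v1, replicate 2 was the higher rhizophore library: the values were 47.7 and 91.9 CPM in rhizophore, 1330 and 1512 CPM in leaf, 1005 and 597 CPM in root, and 1470 and 1541 CPM in shoot. The others at this level were 432362.v1, 137837.v1, 443333.v1, 137766.v1 and 137828.v1, all with root as the lowest of the 3 organs.

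**Figure D3:**
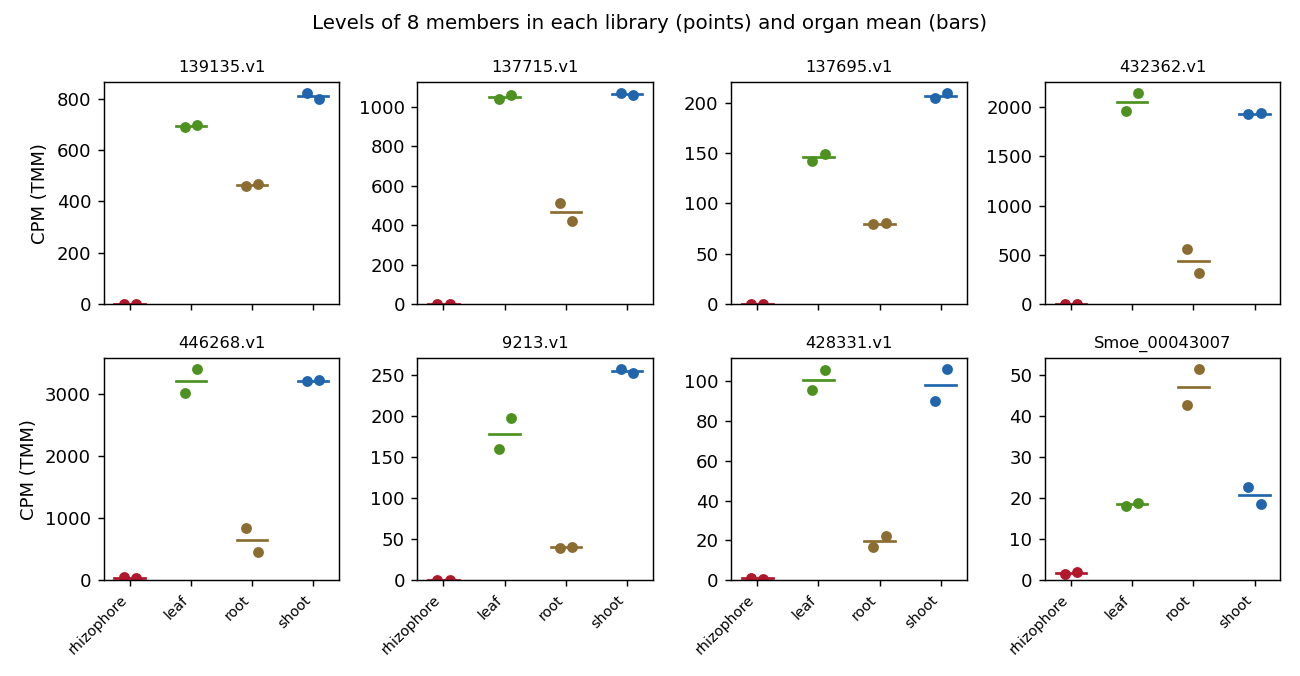
CPM of 8 of the 200 models in each library (points) with the organ mean (horizontal lines), in the order rhizophore, leaf, root, shoot, on linear axes that start at 0. Rhizophore points sit at or near 0 in all panels, root lies between rhizophore and the leafy organs in 7 of them, and in Smoe_00043007 the root is the highest organ, at 42.6 and 51.6 CPM.

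Leaf, root and shoot were not alike among themselves, and the rule set only the limit of 8-fold on how far they could differ. The highest of their 6 values was 1.15 to 7.61 times the lowest, with a median of 2.28 times, under 2 times in 83 models and 4 times or more in 37. Root had the lowest mean of the 3 organs in 144 of the 200 models, leaf in 30 and shoot in 26. The highest mean was that of shoot in 110 models, of root in 46 and of leaf in 44. These means carry the TMM factors, where a higher factor gives a lower CPM. The factors were 1.52 and 1.738 in root, 0.822 and 0.711 in leaf, and 0.636 and 0.634 in shoot. In unscaled counts the share of the 200 models was 2.94% and 3.15% in root, 2.93% and 2.72% in leaf, and 2.65% and 2.63% in shoot. The order of the organs without TMM factors was not tested. All 4 leaf and shoot libraries were above both root libraries in 115 models (57.5%), against 23.1% of all models tested and 36.2% of the 8963 that met the level and evenness limits. Both root libraries were above all 4 leaf and shoot libraries in 25 models (12.5%), against 46.6% and 28% of those backgrounds.

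Taken organ by organ, both root libraries were above both shoot libraries in 32 models (16%), against 52.6% of all models tested, and below both in 129 (64.5%), against 28.2%. Both leaf libraries were above both root libraries in 121 models (60.5%), against 24.9% of all models tested, and below both in 33 (16.5%), against 50.6%. Models with root at the low end were thus more common among the 200 than in the whole table. The whole table also holds models that missed the level limit, so it is not a like background. Against the 8963 models that met the level and evenness limits the gap was smaller. There, all 4 leaf and shoot libraries were above both root libraries in 36.2%, against 57.5% of the 200.

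Between root and shoot, edgeR's quasi-likelihood test on all 8 libraries, adjusted over 23662 models, called 27 of the 200 models (13.5%) lower in root and 0 higher. Over all models tested, 13.6% were called, 8.4% lower in root and 5.24% higher, and among those that met the level and evenness limits the shares were 11.8% and 4.14%. The share called was thus close to the background, and the side was not evenly spread. The median log2 fold change of the 200 was -0.6, against 0.64 over all models and -0.15 over those that met the level and evenness limits. At an unadjusted p under 0.05, 58 were lower in root and 6 higher, which is 32% of the 200, against 44.8% of all models.

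The count of calls between root and shoot moved with the rhizophore libraries, which share the estimate of spread. Without rhizophore replicate 2, 82 models were called lower in root and 24 higher, with 54.7% of all models called, and without rhizophore replicate 1 the counts were 81 and 24, with 55%. From the 4 root and shoot libraries alone, 91 were called lower and 10 higher, with 55.3% of all models called. Without root replicate 1 no model of the 200 was called, and 0.742% of all models were. Without root replicate 2, shoot replicate 1 or shoot replicate 2 the counts were 2, 4 and 3, all lower in root, with 2.58%, 3.19% and 3.27% of all models called. Without leaf replicate 1 or 2 there were 13 each, with 10.3% and 10.4% of all models called. The calls over the whole table thus moved together with those among the 200. With rhizophore replicate 2 counted as root, 0 of the 200 were called, while 7.11% of all models were. The median log2 fold change of the 200 was below 0 in each of these fits.

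Of the called models, 9213.v1 had the largest fold between root and shoot. It had 0.402 and 0 CPM in rhizophore, 159 and 198 CPM in leaf, 39.6 and 40.2 CPM in root, and 257 and 253 CPM in shoot. The log2 fold change of root over shoot was -2.68 (SE 0.6), at an edgeR adjusted p of 0.0214 and of up to 0.236 over the alternatives tried. Root, leaf and shoot did not overlap. The next was 432529.v1, with 1.04 and 1.49 CPM in rhizophore, 261 and 302 CPM in leaf, 74.0 and 40.5 CPM in root, and 297 and 299 CPM in shoot. Its log2 fold change of root over shoot was -2.38 (SE 0.39, edgeR adjusted p = 0.00473, up to 0.159 over the alternatives), and its leaf and shoot libraries overlapped. Among the first 12 ranks, 139154.v1, 432362.v1, 137865.v1, 137695.v1, 137752.v1 and 137887.v1 were called lower in root than in shoot, and the other 6 were not.

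Between leaf and root, the same test called 16 of the 200 models higher in leaf (8%) and 1 lower (0.5%). The background was 9.76% called, 6.66% higher and 3.1% lower, over all models, and 8.72% and 3.49% over those that met the level and evenness limits. The share called was thus no larger than that of models with a like level and evenness. The median log2 fold change of leaf over root was 0.55, against -0.66 over all models and 0.06 over those that met the limits. At an unadjusted p under 0.05, 46 were higher in leaf and 6 lower, which is 26% of the 200, against 38.8% of all models. This comparison shares its root libraries with the one above and is not separate evidence.

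The leaf and root calls also moved with single libraries. Without rhizophore replicate 2, 74 models were called higher in leaf and 24 lower, with 42.9% of all models called, and without rhizophore replicate 1, 74 and 23, with 43.5%. The 4 leaf and root libraries alone gave 64 higher and 5 lower, with 42.7% of all models called. Without root replicate 1 there were 0 calls among the 200 and 0.337% of all models were called, and without root replicate 2 there were 2, with 2.21%. Without leaf replicate 1 or 2 there were 2 and 1, with 2.22% and 2.78% of all models called. Without shoot replicate 1 or 2 there were 9 each, with 5.86% and 5.88%. With rhizophore replicate 2 counted as root there were 0, with 5.8% of all models called.

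The called models 428331.v1 and 446268.v1 had the largest folds of leaf over root. Model 428331.v1 had 1.29 and 0.777 CPM in rhizophore, 95.6 and 105 CPM in leaf, 16.9 and 22.1 CPM in root, and 90.1 and 106 CPM in shoot. The log2 fold change of leaf over root was 2.37 (SE 0.36, edgeR adjusted p = 0.00366, up to 0.14 over the alternatives), and leaf and shoot overlapped. For 446268.v1 the log2 fold change was 2.32 (SE 0.45, edgeR adjusted p = 0.0119, up to 0.127 over the alternatives). The 1 model called lower in leaf was Smoe_00043007, with 1.53 and 1.88 CPM in rhizophore, 18.1 and 18.9 CPM in leaf, 42.6 and 51.6 CPM in root, and 22.7 and 18.6 CPM in shoot. Its log2 fold change was -1.35 (SE 0.36, edgeR adjusted p = 0.0432, up to 0.626 over the alternatives). The call was lost with the replicate number as a block, at an edgeR adjusted p of 0.0691.

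Between leaf and shoot, 0 of the 200 models were called by edgeR, against 0.0127% of all models, and 0 were past an unadjusted p of 0.05. In simulated data the edgeR test found 0% of planted 2-fold changes between leaf and shoot, 10% of 4-fold and 50% of 8-fold ones. The rule kept only models within 8-fold, so the lack of calls does not show that leaf and shoot were alike. DESeq2's test also called 0 of the 200, with 0.283% of all models called, as did limma-voom, with 0.00845%. The 4 leaf and shoot libraries alone gave 5, all lower in leaf, with 0.736% of the 17122 models tested there. The median log2 fold change of leaf over shoot was -0.1, against 0 over all models and -0.08 over those that met the limits. Both shoot libraries were above both leaf libraries in 84 models (42%), against 17.5% of all models and 25.6% of those that met the limits. Both leaf libraries were above both shoot libraries in 23 models (11.5%), against 9.62% and 11.2%.

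**Figure D4:**
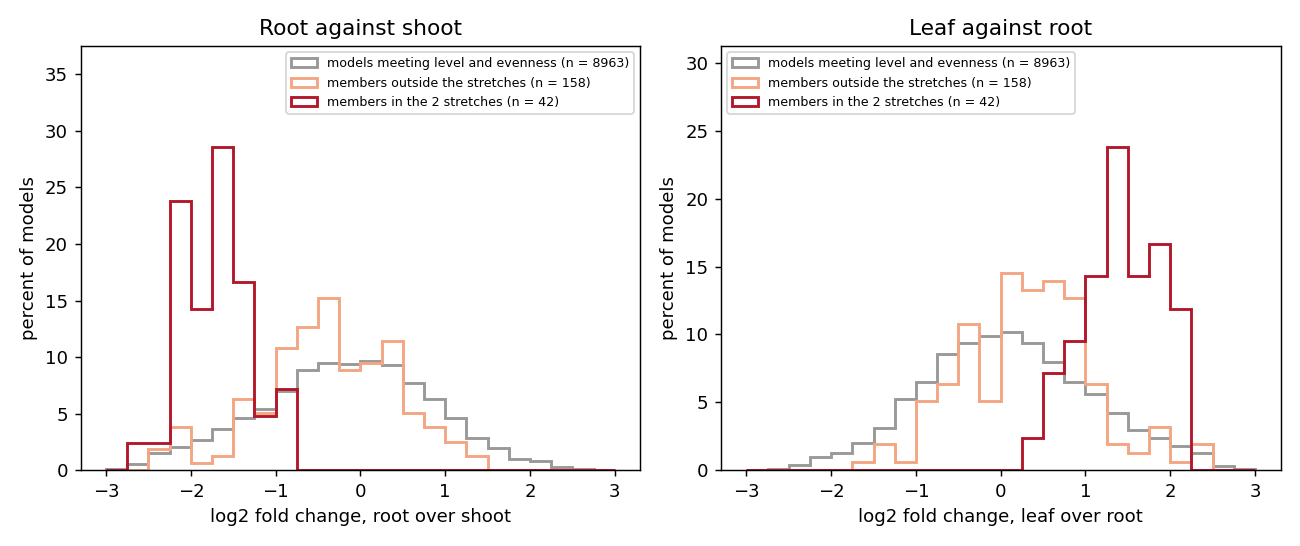
Distribution of the edgeR log2 fold change of root over shoot (left) and of leaf over root (right), as a percentage of models in bins, for the 42 members in the 2 row stretches, the 158 other members and all 8963 models that met the level and evenness limits. The 42 lie wholly on the side of lower root, at medians of -1.71 and 1.41, while the 158 lie nearer to the background, at -0.34 and 0.35.

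The 200 models were not spread evenly over the rows of the count table, whose order is not explained in the sources used here. When members at most 10 rows apart were joined, 30 fell in 1 stretch of 67 rows (rows 7617 to 7683) and 12 in a stretch of 23 rows (rows 24980 to 25002). Of the remaining 158, 142 stood alone and 16 in 8 chains of 2. This grouping was made after the values were seen, so it has no test. The models of the first stretch were nearly all depleted in rhizophore: 67 of 67 were at the level, 65 of these also met the limit of 3 times, and 33 of the 65 were left out for being uneven. In the second stretch 20 of 23 were at the level, and all 20 were depleted, 8 of them uneven. The 2 exceptions in the first stretch, 137822.v1 and 137727.v1, had 909.7 and 971 CPM in rhizophore replicate 1 but 55.4 and 69.6 CPM in replicate 2.

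**Figure D5:**
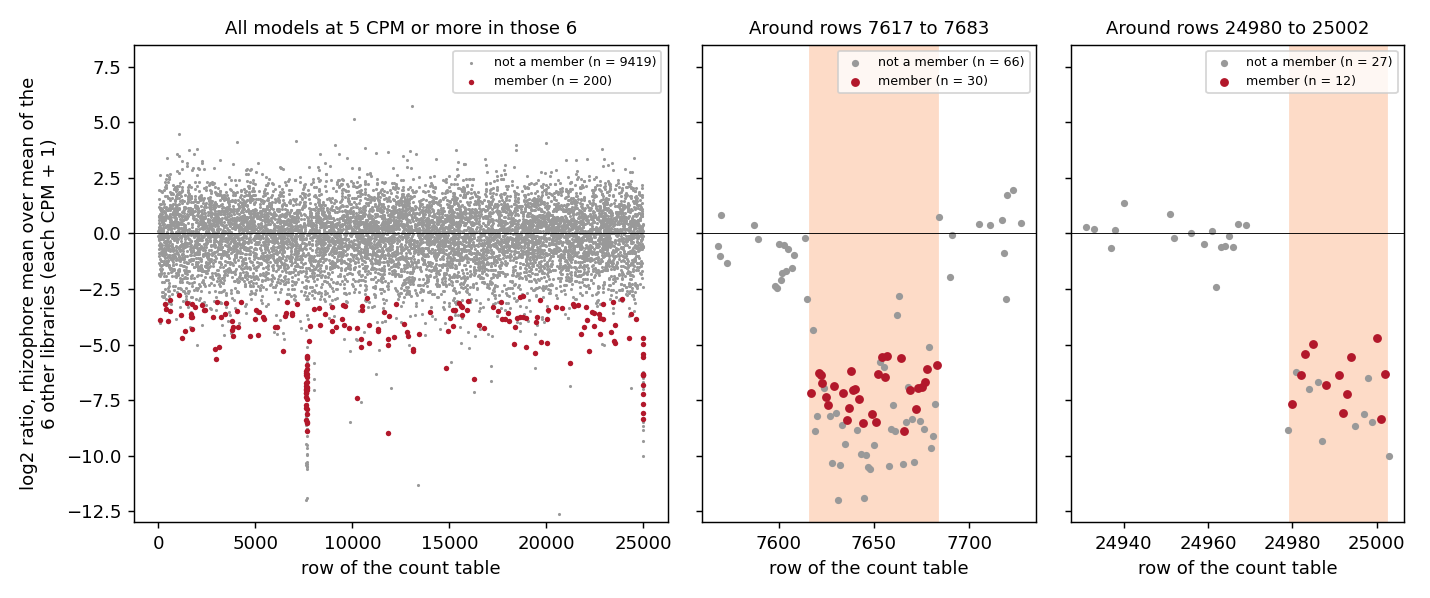
Log2 ratio of the rhizophore mean to the mean of the 6 other libraries (each CPM + 1) against the row of the count table, for models at 5 CPM or more in those 6, over all rows (left) and around the 2 stretches (middle and right, shaded). Outside the shading the points lie mostly near 0, and inside it nearly every point, member or not, lies far below 0.

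The 90 models of both stretches, members and others, took a large part of the counted reads of the leafy organs and almost none of those of the rhizophore. Their share of all counts was 0.348% and 0.0272% in the rhizophore libraries (95% Wilson intervals 0.344 to 0.351 and 0.0263 to 0.0282). It was 31.6% and 30.4% in leaf, 8.02% and 5.09% in root, and 30.9% and 31.5% in shoot. Rhizophore replicate 1 thus held a larger share than replicate 2, and both lay below both root libraries. Of these 90 models, 48 were not among the 200: 43 met the level limit but not the evenness limit, 3 missed the level limit, and 2 met the whole rule at a lower rank. The most abundant, 236852.v1, which was too uneven, had 250.5 and 37.6 CPM in rhizophore, 125200 and 144100 CPM in leaf, 28040 and 9778 CPM in root, and 172000 and 168600 CPM in shoot.

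The 42 members in the stretches were more abundant and more depleted than the other 158. Their organ means had medians of 0.934 CPM in rhizophore, 272 CPM in leaf, 106 CPM in root and 363 CPM in shoot. For the 158 the medians were 1.13 CPM in rhizophore, 32.5 CPM in leaf, 26.9 CPM in root and 35.1 CPM in shoot. The median fold over the rhizophore, with lower bounds taken at their value, was 176 for the 42 and 26.8 for the 158. The 42 made up 17.2% and 2.95% of the summed CPM of the 200 models in rhizophore, 51.6% and 50% in leaf, 34.6% and 40% in root, and 54.4% and 53.8% in shoot. Of the first 25 ranks, 20 belonged to the stretches. Since rank, level and fold chose the models, these values are descriptions.

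Among leaf, root and shoot, whose order the rule left free, the 42 had the lower root levels. All 4 leaf and shoot libraries were above both root libraries in 41 of the 42, and in 74 of the 158 others. No stretch member had both root libraries above all 4 others, and 25 of the 158 did. The log2 fold change of root over shoot ran from -2.68 to -0.8 in the 42, with a median of -1.71 and 13 called lower. In the 158 it ran from -2.38 to 1.44, with a median of -0.34 and 14 called lower. For leaf over root the medians were 1.41 in the 42, with 5 called higher, and 0.35 in the 158, with 11 called higher and 1 lower. The lower root level among the 200 was thus most marked in the stretches, a split made after seeing the values and not tested.

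The rhizophore libraries also differed within the stretches. Replicate 2 was at 0 for 29 of the 42 members there, against 44 of the 158 others, and replicate 1 for 12 of the 42 and 34 of the 158. Replicate 1 was above replicate 2 in 28 of the 42, with 12 equal at 0. In the first stretch no member was higher in replicate 2, and in the second 2 were.

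Outside the stretches, 432362.v1 at rank 4 was the only model among the first 12. Models with a Smoe name made up 29 of the 200 (14.5%), against 2719 of the 25004 in the table (10.9%). The best rank of a Smoe model was 37. Their mean over leaf, root and shoot ran from 8 to 137 CPM with a median of 28.8 CPM, and their fold over the rhizophore from 14.1 to 72.6 with a median of 29.2. Of the models with a numeric name, those numbered in the 137000s held 22 members among 82, against 0.767% of all numbered models. All 22 lie in the first row stretch, so this restates that grouping and is no further one.

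The organ averages in the authors' deposited table were made from the same libraries that the rule used, so their low Rhizophore values were fixed by the choice of models and are no separate evidence. In the authors' deposited table, the Rhizophore average of the 200 models had a median of 1.4 in its normalized units. The medians of the other averages in the authors' deposited table were 48.2 for Leaf, 18.3 for Root and 49.2 for Shoot. Their Root average was the lowest of the 3 in 193 models of the authors' deposited table, whereas the root mean of the count table was lowest in 144. The median ratio of Root over Shoot was 0.349 in the authors' deposited table and 0.662 in the count table, while that of Leaf over Shoot was 0.928 in both. Rhizophore replicate 2 has the weight of 49.7% given above in these Root averages, and its part in the difference was not tested. Of the 46 models at 0 in rhizophore replicate 1 of the count table, 16 were above 0 in the Rhizophore average of the authors' deposited table, at up to 0.426.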

How the data were processed

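Total RNA was amplified with a Nugen Ovation kit and read as 50 bp single ends on an Illumina HiSeq, per the labels. The count table holds raw read counts per gene model and library as deposited, per the file headers; no value of 1 to 4 occurs in it. The second table gives 1 signal value per organ, a normalized average made by the authors, per the file headers. Bowtie2 (which aligns reads) and edgeR are named, per the submitters' processing notes. Not given in the sources used here are their versions and roles, the genome build, annotation, counting tool, strand setting and the handling of reads with several matches. Of the 25004 model names, 0 matched a reference table of 37888 genes.

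CPM were scaled with TMM factors over all rows. Organ contrasts used edgeR 4.0.16 in R 4.3.3 (filterByExpr, robust quasi-likelihood fit with a term per organ; all 8 libraries together, so that the spread is estimated over every organ), with Benjamini-Hochberg adjustment over 23662 models and calls at an adjusted p under 0.05. All 200 members passed the filter. Each standard error was derived from the F statistic of its log2 fold change. DESeq2 1.42.0, limma 3.58.1 (voom), other size factors, filters, samples, a replicate block and other limits of the rule were tried as alternatives. Folds against a rhizophore library at 0 use 5 counts per library. Wilson intervals hold counting error alone, and the reads, having no molecular identifiers, are not independent molecules. The scripts were tested on simulated data. The organ averages were fitted as non-negative sums of the 8 count columns with scipy 1.17.1. The members, lists and tests were chosen with earlier results of these data known. Named models are the first 12 by rank, the 8 of highest mean level, per contrast and direction the 2 called models of largest fold whose groups do not overlap, and those at the edge of each limit. The row stretches, the 2 exceptions in them, 236852.v1 and the split of the members by stretch were chosen after their values were seen. So were the models numbered in the 137000s.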

Additional observations from a re-analysis of the deposited data

How the results depend on the processing

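Over the alternatives run, none of the models named for their calls changed the sign of its log2 fold change. The other results are counts and a median fold, for which no reversal was defined. Of the 200 models, 27 were called between root and shoot; DESeq2 gave 49, limma-voom 77, the 4 libraries alone 101, rhizophore replicate 2 as root 0, and an adjusted p under 0.01 gave 8, with 27.5%, 40%, 55.3%, 7.11% and 4.07% of all models called. Leaving out 1 library gave 0 to 106. The 17 calls between leaf and root became 40, 50, 69, 0 and 3 under the same settings, with 22.2%, 31.3%, 42.7%, 5.8% and 3.2% of all models called, and 0 to 98 with 1 library left out. Between leaf and shoot, where 0 were called, the 4 libraries alone gave 5 and leaving out 1 library gave 0 to 0. With 1 library left out, the number that met the rule, 552, was 574 to 1047, the highest without rhizophore replicate 1; a limit of 5 times gave 307, and rhizophore replicate 2 as root gave 90. The median fold of 31.5 was 27.8 to 46.9 with 1 rhizophore replicate left out, the higher value without replicate 1, an alternative added after seeing the data. In CPM without TMM factors, 457 models met the rule. Among them were 187 of the 200, and 139 of the 200 stayed within the first 200 ranks. The causes of these shifts were not tested. Fewer libraries leave fewer degrees of freedom, and leaving 1 out went with more calls for some libraries and fewer for others. A stricter limit can only keep fewer models. Leaving 1 library out makes the limits of the rule easier to meet, apart from the change in scaling. DESeq2's size factors moved the median of all models by 0.17 between root and shoot, where the members' median was then -0.42 with 20 called lower and 1 higher, and by -0.12 between leaf and root, where it was 0.43. Testing only models at 10 CPM in 2 libraries, which kept 194 members, gave 22 lower and 6 higher in root, with 28.9% of all models called. Over 17 alternatives each, 9213.v1 missed the threshold in 8, 432529.v1 in 3, 428331.v1 in 2, 446268.v1 in 6 and Smoe_00043007 in 9.

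The replicate numbers did not pair the samples, with correlations of same-numbered deviations from -0.01 to 0.07. With the replicate number as a block, 19 models were called between root and shoot, 0 between leaf and shoot and 12 between leaf and root, all higher in leaf: Smoe_00043007, the 1 model called lower, was lost (edgeR adjusted p = 0.0691).

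Depth limits the lowest rhizophore values, since a count under 5 is listed as 0. With 2 libraries per organ, the calls rest on the spread shared by all organs.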
